A study of Mus musculus with 8 samples.

Results

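The comparison described here sets B cells about to enter their first division, 33 h after activation with lipopolysaccharide (LPS), against B cells taken 10 h after the same stimulus. Its members were the libraries whose labels give 10 hours, or 33 hours with imminent division and not pre-S. These were 4 of the 8 in situ HiC libraries used, with 2 replicates in each group. All came from naive splenic B cells of C57BL/6 mice, labelled with CellTrace Violet, a dye that is diluted at each division, and cultured with LPS, the bacterial cell wall product that drives B cells to proliferate. According to the study's methods, the mice were male and both groups were sorted as CD69+ activated B cells that had not yet divided, so the groups shared the stimulus, the dye and the gate and differed in time. The other libraries, 2 at 3 h from the same strain and 2 pre-S libraries of 33 h cells that a FUCCI cell cycle reporter had shown not to have reached S phase, helped to estimate the spread but entered no contrast. The gate at 33 h holds undivided cells of any cell cycle phase, and the share in each phase was not analysed here. The study's methods call the replicates biological but do not say how mice or cultures were divided among them, and the p-values measure the spread between these libraries.

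In HiC, crosslinked chromatin is cut, ends that lie near each other are ligated, and each sequenced pair records a contact between 2 places in the genome. Contacts thin out with distance along a chromosome. On top of that decay, transcribed A and silent B compartments each prefer their own kind, and topologically associating domains (TADs) are stretches that contact themselves more than their neighbours, separated by boundaries that often hold CTCF and cohesin. In resting B cells the chromatin is compact, and activation opens it before the cells grow and divide. Condensin then folds chromosomes for mitosis, when TADs and compartments are lost.

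The 10 h libraries held 116957398 and 153258311 read pairs, and the 33 h libraries 180325399 and 218945191. Cis pairs made up 75.2% and 74.7% of autosomal pairs at 10 h and 71.4% and 71.0% at 33 h. The 33 h replicate 2 library stood apart on the sex chromosomes, with 3.74% of read ends on X and 0.0490% on Y, against 2.39 to 2.84% and 0.0804 to 0.123% in the other 7 libraries. The comparison was therefore confined to autosomes, and every test was run with and without that library. What sets it apart was not tested. The cell type could be checked only through compartments. The starts of 8 of 8 B cell genes lay in A in all 4 libraries, but so did 4 of 6 T cell genes and 6 of 6 myeloid genes, so compartments did not tell the cell types apart. Of these genes, Gata3, a T cell transcription factor, moved most, from component values of 0.199 and 0.149 at 10 h to −0.0999 and −0.0293 at 33 h (limma, FDR 6.37e-04).

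Contacts between places 0.1 to 1.3 Mb apart took a larger share of cis contacts at 33 h on every autosome, and contacts beyond 5.1 Mb a smaller one. The mean change over the 19 autosomes was 0.24 on the log2 scale at 0.1 Mb, 0.37 at 0.35 to 0.45 Mb and 0.21 at 1 to 1.3 Mb. It was −0.03 at 2.65 to 3.6 Mb, −0.12 at 5.1 to 7.05 Mb and −0.32 at 37.1 to 51.6 Mb. In all distance classes from 0.1 to 1.3 Mb both 33 h libraries lay above both 10 h libraries on 19 of 19 autosomes, and from 5.1 Mb on they lay below them on 19 of 19. Neighbouring bins, 0.05 Mb apart, differed little, with a mean change of 0.04 and 5 autosomes without overlap. The autosomes differed in where the gain ended. At 1 to 1.3 Mb chromosome 19 had gained 0.09 and chromosome 14 had gained 0.28, and at 1.9 to 2.6 Mb the values were −0.07 and 0.10.

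**Figure D1:**
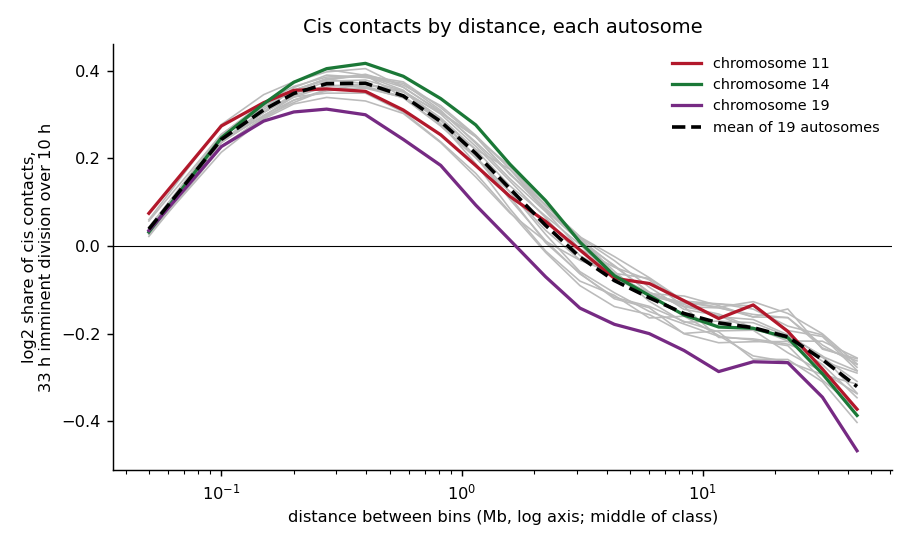
The change in the share of cis contacts (log2, mean of the 33 h imminent division libraries over mean of the 10 h libraries) is plotted against the distance between bins in Mb on a log axis, with 1 line per autosome, chromosomes 11, 14 and 19 in colour and the mean of the 19 autosomes as a dashed line. All lines peak between 0.25 and 0.45 Mb, with the mean reaching 0.37, and all lie below 0 from 3.65 Mb on.

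The share of cis pairs beyond 1.5 Mb fell on each of the 19 autosomes (100% called at 5% FDR, limma on the logit scale). On chromosome 15 it was 48.0% and 49.0% at 10 h and 42.2% and 42.2% at 33 h, a change of −0.37 (log2 odds, SE 0.041), and on chromosome 3 it was 55.1% and 56.3% against 51.0% and 50.9%, a change of −0.28 (SE 0.041). Chromosomes 15 and 3 were the extremes of the 19. Once the mean over autosomes was taken off each library, 15 autosomes (78.9%) still differed, 7 having lost less than the mean and 8 more. Chromosome 3 stood 0.04 above the mean change and chromosome 15 stood at −0.05.

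Contacts between different chromosomes moved the other way. The share of an autosome's read ends that joined another autosome was higher at 33 h on 19 of 19 autosomes (100% called). Chromosome 11, which is dense in genes, went from 24.9% and 25.4% to 30.3% and 30.4% (log2 odds 0.37, SE 0.078, FDR 1.64e-04). Chromosome 18, which is poor in genes, went from 29.6% and 30.2% to 32.8% and 33.1% (0.20, FDR 0.0113). This count depended on single libraries, being 0 of 19 without 10 h replicate 1 (14 at an unadjusted p under 0.05) and 1 of 19 without 33 h replicate 2. Relative to the mean of the autosomes, 10 (52.6%) differed, 5 in each direction, with chromosome 11 at 0.10 and chromosome 7 at 0.06 above the mean and chromosome 18 at −0.07.

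Compartment strength is the mean contact within A and within B over the contact between A and B, each relative to the mean at its distance. It was taken among the bins with the 20% highest and 20% lowest component values. Distances with a mean under 1 read pair per bin pair were left out in each library. The 33 h libraries were the deeper ones, so they could keep longer distances, and the part of depth in the strengths was not tested. Compartment strength was lower at 33 h on 14 of 19 autosomes (73.7%). Chromosome 17 fell from 23.9 and 21.4 to 13.5 and 14.7 (log2 change −0.68, SE 0.17, FDR 0.00186). Chromosome 11 had 25.6 and 23.5 at 10 h and 21.9 and 23.1 at 33 h (−0.12, FDR 0.452) and was not called. Relative to the mean of the autosomes, 13 (68.4%) differed. Of these, 6 kept more of their strength, led by chromosome 11 at 0.31 and chromosome 9 at 0.23, and 7 less, led by chromosome 17 at −0.25. With the interchromosomal background taken off, 4 of 18 still differed from the mean, 1 having kept more and 3 less. The absolute calls did not survive taking off the interchromosomal background (0 of 18 autosomes in limma, 4 at an unadjusted p under 0.05) or leaving out 10 h replicate 1 or 33 h replicate 1 (0 of 19 each, 5 each at an unadjusted p under 0.05), and without 10 h replicate 2 or 33 h replicate 2 they numbered 4 and 5.

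Differential interactions (DIs) were pairs of 50 kb bins of 1 autosome whose counts differed at 5% FDR in edgeR, after offsets that set the typical pair of each abundance near no change. Of 1457471 bin pairs tested, 2.01% were DIs, and 0.691% of all pairs tested were strengthened and 1.32% weakened at 33 h. Both 33 h libraries lay on 1 side of both 10 h libraries in 99.99% of strengthened and 99.88% of weakened DIs, and in 46.4% of all pairs tested. Weakened contacts made up 65.6% of the DIs. That split was 75.4% and 74.9% without 10 h replicate 1 or 2, 54.5% with bins of 100 kb, and 99.4% with DESeq2, whose own filter left an adjusted p to 72874 pairs.

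The chromosomes differed more in lost than in gained contacts. The share of bin pairs that weakened ran from 0.747% on chromosome 3, 0.843% on chromosome 14 and 0.855% on chromosome 18 to 2.07% on chromosome 7, 2.18% on chromosome 11 and 2.33% on chromosome 17. The share that strengthened ran from 0.477% on chromosome 7 to 0.957% on chromosome 18. Chromosomes 3 and 18 were the only autosomes with more strengthened than weakened DIs, with 45.1% and 47.2% weakened, and chromosome 7 had the most one-sided change, with 81.3% weakened. Without 33 h replicate 2 the 2 chromosomes still had more strengthened than weakened pairs, 0.439% against 0.314% on chromosome 3 and 0.479% against 0.412% on chromosome 18. The coverage of a bin, here and below, is its count of read pairs with other autosomes, so it also carries changes in contacts between chromosomes. With the coverage of each bin in the offsets, chromosome 3 turned to 1.43% strengthened and 2.97% weakened, while chromosome 18 had 2.195% and 0.916%. Chromosomes 12, 13 and 19 also had more strengthened than weakened pairs in that fit. Chromosome 11 then had the largest share weakened, 5.80%, followed by chromosome 1 with 3.80%, while chromosome 17 had 2.51%, below the 2.63% over all autosomes, and chromosome 7 had 3.07%. With TMM factors chromosome 18 had slightly fewer strengthened than weakened pairs, 1.78% against 1.804%, and chromosome 3 had 1.69% against 1.49%. Fitting again without each of the 4 libraries and with bin coverage left 88 strengthened and 770 weakened DIs that passed every time, with no strengthened one on chromosomes 7 and 17 (0 each) and 77 and 57 weakened ones there.

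**Figure D2:**
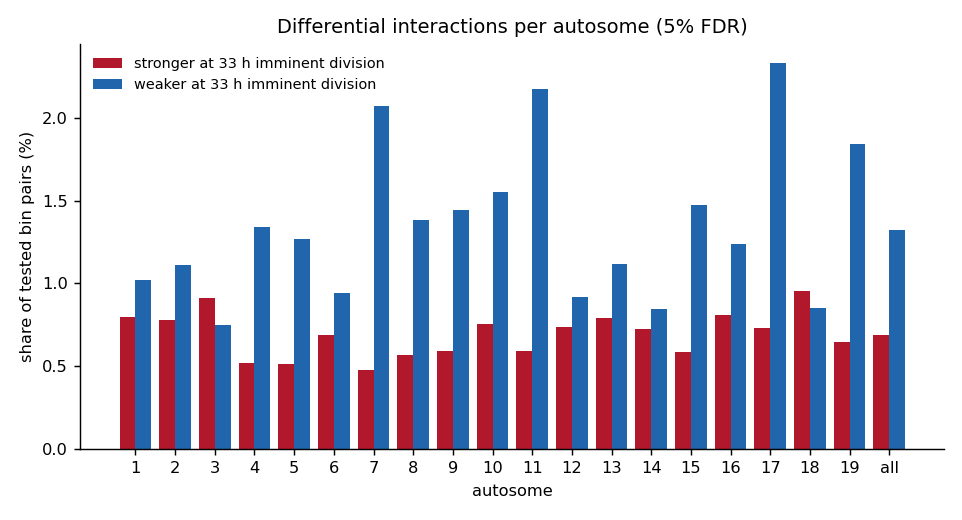
Bars give the share of tested 50 kb bin pairs of each autosome, and of all autosomes together, that strengthened (red) or weakened (blue) at 33 h imminent division against 10 h at 5% FDR. The weakened share is highest on chromosomes 17, 11 and 7 (2.33%, 2.18% and 2.07%), and the strengthened bar is the taller only on chromosomes 3 and 18.

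Weakened contacts lay at genes more often than strengthened ones did. Bins with the start of a protein-coding gene weakened in 2.41% of their tested pairs and strengthened in 0.672%, and bins without one in 0.873% and 0.700%. At the anchors of weakened DIs 53.1% of bins held a gene start, with 0.983 starts a bin, against 29.1% and 0.444 over all pairs tested and 28.3% and 0.401 for strengthened DIs. The GC content of the anchors was 46.4% for weakened DIs, 40.7% for strengthened DIs and 42.2% over all pairs, and the median change in anchor coverage was −0.01, 0.04 and 0.00 on the log2 scale. The part of GC content and coverage in these shares was not tested.

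Distance separated the directions as well. Between 100 and 200 kb 2.14% of bin pairs strengthened and 0.779% weakened, and from 1 to under 1.5 Mb 0.132% strengthened and 2.17% weakened. Neighbouring bins, 50 kb apart, changed in both directions, with 1.67% strengthened and 2.05% weakened. Over all pairs tested the median change was 0.01 at 50 kb, 0.12 at 100 to 200 kb and 0.14 at 250 to 450 kb, where 1.22% strengthened and 1.26% weakened. It was 0.02 at 500 to 950 kb and −0.17 from 1 to under 1.5 Mb. These directions are relative to the offsets, which follow abundance, and only pairs over the background were tested. They are not shares of cis contacts, which at 1 to 1.3 Mb rose on 19 of 19 autosomes (mean 0.21).

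DIs were unevenly spread along chromosomes. Each window of 1 Mb was given the tested pairs whose bins both lay in it or within 1 Mb of it, so adjoining windows share pairs. In 2397 such windows with at least 200 pairs tested, the median window had 0.688% strengthened and 0.553% weakened pairs. Coordinates and genes are those of the window itself. The window with the largest share weakened lay at chr7:30950005-31950361, where 103 of 437 pairs (23.6%) weakened and 4 strengthened. It holds the Fxyd genes, which encode regulators of the sodium pump, and a cluster of secretoglobin genes. Adjoining windows followed on chromosome 10, where 213 of 937 pairs (22.7%) weakened at chr10:80300443-81300101, 155 of 926 (16.7%) at chr10:79300478-80300446 and 122 of 838 (14.6%) at chr10:81300098-82299529. These 3 windows held 56, 53 and 33 gene starts. Among them were Tcf3, which encodes the transcription factor E2A, Dot1l, a histone methyltransferase, Lmnb2, which encodes lamin B2, and Elane, a neutrophil protease. The remaining one was the proximal end of chromosome 19, with 83 of 538 pairs (15.4%) and Lrp5, Kmt5b and Unc93b1, an escort of nucleic acid sensing Toll-like receptors.

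The windows with the most strengthened pairs lay at chromosome ends. The largest share, 58 of 252 pairs (23.0%) with 0 weakened, was in the last window of chromosome 8, which holds Ccdc7a and Ccdc7b. The last windows of chromosomes 18, 12 and 3 had 13.8%, 12.6% and 10.6% strengthened and 0 weakened. Tmx3 starts in that of chromosome 18, and Depdc1a, Rpe65 and Wls start in that of chromosome 3. No gene starts in that of chromosome 12, but its pairs reach up to 1 Mb before it. An olfactory receptor cluster at chr10:129299698-130300076, 394.9 kb from the distal end, had 11.4% strengthened and 5.48% weakened. The 53 windows within 2 Mb of a distal end had a median of 2.21% strengthened pairs (highest 23.0%), the 51 within 5 Mb of the proximal end 0.997%, and the 2293 elsewhere 0.675% (highest 5.65%). Weakened pairs had medians of 0.625%, 0.814% and 0.548% in the same order. How well reads map at chromosome ends was not tested.

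Among single contacts, those named here had the smallest p on their autosome and kept sign and call without each of the 4 libraries and with bin coverage in the offsets. Pairs that did so in these 5 fits are said to have passed every check. Bicd1, which encodes an adaptor of the dynein motor, gained contact between the bin of its start and the next bin, chr6:149399855-149450039 with chr6:149450036-149499849, from 114 and 112 normalised read pairs at 10 h to 239 and 204 at 33 h (log2 0.96, edgeR FDR 1.51e-09). Coverage of these bins was 0.10 and 0.14 higher on the log2 scale, and with coverage in the offsets the change was 0.71. The strongest rise among those described was at Wls, which encodes the carrier of Wnt proteins, where contact with a bin without genes 250 kb away went from 6.22 and 6.66 to 39.6 and 29.0 (2.37, FDR 2.2e-06). Its 10 h levels rest on few raw read pairs, 5 and 7. Rock1, a kinase of the cytoskeleton, went from 31.0 and 38.1 to 84.0 and 83.5 with a bin 150 kb away (1.26, FDR 3.2e-06), and its 3 h libraries had 53.1 and 70.3. Ncoa1, which encodes a coactivator of nuclear receptors, went from 106 and 127 to 193 and 209 (0.77). The contact of Pcmtd2 with Gm14496 near the end of chromosome 2 went from 30.0 and 33.6 to 87.2 and 82.0 (1.39). Ccdc7a with Ccdc7b near the end of chromosome 8 went from 18.1 and 30.9 to 71.3 and 66.3 (1.43), and Prl2c3 with its neighbour from 306 and 331 to 515 and 463 (0.61), the latter not called with TMM factors or DESeq2. The remaining 9 such pairs, 1 per autosome, had changes of 0.59 to 2.49 over 50 to 350 kb.

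The weakened pairs named by the same rule spanned longer distances. The bin with the starts of Myl2, a myosin light chain of heart muscle, and Ccdc63 lost contact with the bin of Ift81, an intraflagellar transport gene, and P2rx7, an ATP-gated channel of immune cells, 500 kb away, from 122 and 138 to 43.5 and 48.3 normalised read pairs (log2 −1.50, FDR 3.0e-13). Ido2, a gene of tryptophan breakdown, and Tacc1, 700 kb apart, went from 116 and 108 to 37.2 and 45.7 (−1.41, FDR 5.85e-10). These 33 h levels lay below all the other 6 libraries, whose lowest was 54.8 at 3 h for Ido2 and Tacc1. Adig and Dhx35 went from 189 and 206 to 79.2 and 112 (−1.03). Cdh23, a cadherin of hair cells, and Slc29a3, a nucleoside transporter gene, went from 243 and 194 to 105 and 114 (−0.98), with 148 and 123 at 3 h. The contact between Pga5, a pepsinogen gene, and Ms4a10 and Ms4a15, of the family of the B cell antigen CD20, went from 324 and 333 to 176 and 202 (−0.79). Mcur1 with Dtnbp1 (−1.46, 1400 kb) and Oscar with Eps8l1 (−1.47, 850 kb) completed the list of local pairs. The eighth joined a bin of 9 near-identical Gm genes at the proximal end of chromosome 9 to a place 32300 kb away (−1.98), and its reads cannot be placed with certainty among the copies. The remaining 11 pairs had changes of −1.69 to −0.85 over 200 to 1000 kb.

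Around the 9 B cell loci that the study discusses, 3.34% of the pairs at their bins weakened and 0.879% strengthened, beside 2.41% and 0.672% over all bins with a gene start. Pax5, which encodes the transcription factor that keeps B cell identity, weakened its contacts along its own gene body. The bin of its start at chr4:44699832-44749970 had 208 and 186 normalised read pairs at 10 h and 129 and 123 at 33 h with the bin 100 kb into the gene (log2 −0.64, FDR 1.7e-04), and 113 and 118 against 64.0 and 66.5 at 150 kb (−0.82, FDR 1.7e-04). These 2 passed every check. Contacts with the bins at 50 and 200 kb and with the starts of Zbtb5 and Polr1e, 300 kb on the other side, weakened too (−0.39, −0.78 and −0.65), so that 5 of 50 pairs tested at that bin were DIs and all 5 were weakened. The 200 kb pair was not called without 33 h replicate 2 (FDR 0.103).

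Ebf1, which acts with Pax5 to specify B cells, had 7 weakened DIs among 50 pairs. Of these, 5 joined its start to bins of its own gene 100 to 300 kb away, with changes of −0.46 to −0.35. At 300 kb the counts were 205 and 205 at 10 h and 148 and 156 at 33 h (−0.43, FDR 0.0175). None of the 7 passed every check. Bcl6, which encodes the repressor that runs the germinal centre programme, lost contact with the start of Tprg 1300 kb away, from 178 and 196 to 103 and 113 (−0.80, FDR 2.2e-06), which passed every check. Prdm1 encodes Blimp-1, the factor that turns B cells into plasma cells, and its bin had 3 strengthened DIs and 0 weakened ones. With the bin 500 kb away it went from 78.8 and 65.6 to 116 and 126 (0.76, FDR 6.7e-04). None of the 3 passed every check. The bins 300 and 250 kb away had changes of 0.88 and 0.42, neither called without 33 h replicate 2 (FDR 0.236 and 0.168). Id2, an inhibitor of E proteins, had 1 strengthened and 2 weakened DIs, Ell2, an elongation factor of antibody secretion, 1 strengthened, Myc 1 weakened, Bach2 1 weakened and Twistnb, a subunit gene of RNA polymerase I, 0 of 106 pairs tested.

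The plot of contact changes around 4 loci shows how far such changes reach. Around the Pax5 start, 109 of 384 pairs that cross the bin weakened (28.4%) and 0 strengthened, with a median change of −0.53, while pairs on 1 side of it had a median of −0.05 and 24 of 408 weakened. The Pax5 map was drawn after these values had been seen. The Bcl6 bin showed the reverse. There 25 of 325 crossing pairs strengthened (7.69%) and 0 weakened, with a median of 0.48, and pairs on 1 side had a median of −0.10 with 27 of 420 weakened. The Bcl6, Ppp2r5c and histone cluster sites are minima chosen for their change in depth, which is computed from crossing contacts, so these maps are descriptions only.

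**Figure D3:**
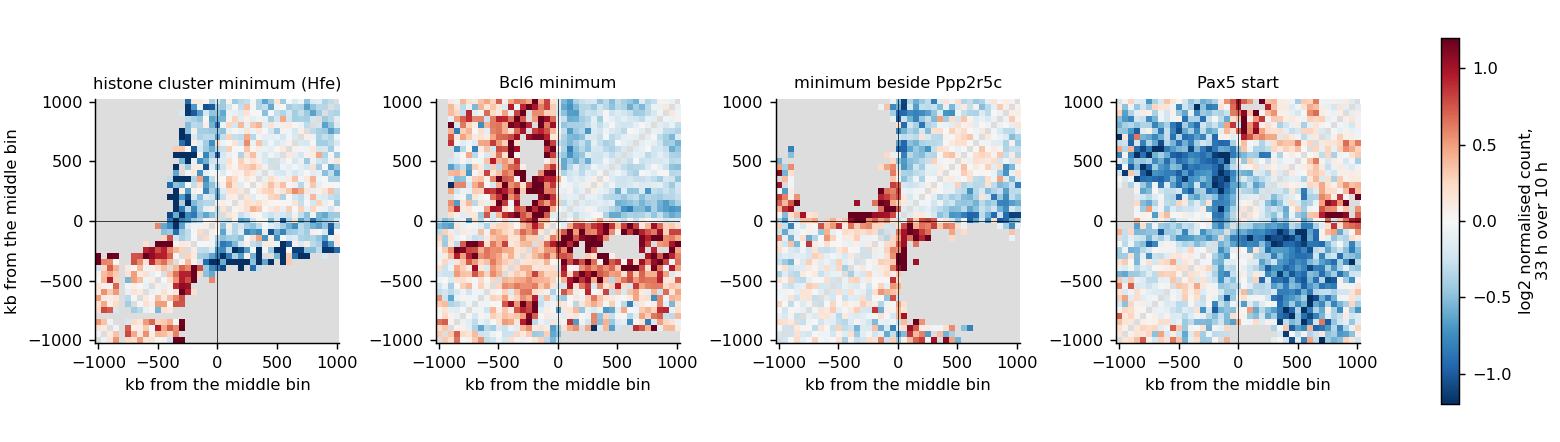
Each panel plots the log2 change in normalised count (mean of the 33 h imminent division libraries over mean of the 10 h libraries, colour) for pairs of 50 kb bins within 1000 kb of a middle bin, on both axes in kb from it, with untested pairs in grey. Pairs that cross the middle bin lost contact at the histone cluster minimum (median −0.48) and at Pax5 (−0.53), and gained contact at Bcl6 (0.48) and beside Ppp2r5c (0.54).

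Boundaries were examined first without choosing sites. For each 100 kb region the log2 ratio of its contacts with the 1 Mb upstream to those with the 1 Mb downstream was compared, and a region far from 0 is a place where contact is one-sided, as at a TAD boundary. Of 23394 regions, 17.7% changed (edgeR glmTreat, fold change over 1.1, 5% FDR), 4.54% towards a larger size of the ratio and 13.1% towards a smaller one. The test is of the change in the signed ratio, and the sizes were compared afterwards. The more one-sided a region was at 10 h, the more often it weakened, with 3.83% weaker where the size was under 0.5, 20.6% at 0.5 to 1, 47.0% at 1 to 2 and 74.8% (249 of 333) over 2. Strengthened shares ran the other way, from 5.97% to 0%. Since the grouping uses the 10 h libraries that are also in the contrast, this order is a description only. By chromosome, weakening ran from 11.1% on chromosome 14 to 18.03% on chromosome 11.

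The region with the smallest p weakened over Klhl25, at chr7:75849957-75949958, where the log2 ratio went from 2.12 and 1.90 at 10 h to 0.84 and 0.76 at 33 h (FDR 4.0e-45). The pre-S libraries had 1.67 and 1.45 there and the 3 h libraries 1.88 and 1.70. A region without genes at chr1:128749956-128850045 went from 4.10 and 4.11 to 2.70 and 2.84 (FDR 8.4e-38), the most one-sided of those named. Weakening was also found at Utp18, a gene of ribosome biogenesis, and Mbtd1 on chromosome 11 (−1.66 and −1.57 to −0.36 and −0.40), and at Ston1 on chromosome 17 (2.31 and 2.34 to 1.143 and 1.27). The last of the 6 were Zfp322a and Abt1 on chromosome 13 (−1.54 and −1.58 to −0.48 and −0.51) and a group with Cd63, a tetraspanin gene, beside an olfactory receptor cluster on chromosome 10 (2.24 and 2.21 to 0.99 and 0.92).

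Of the regions named for strengthening, 4 of 6 changed sign, so their FDR is for the whole change and not for the growth in size. At chr12:69049695-69149982, which holds no protein-coding gene, the ratio went from −0.34 and −0.43 to 0.68 and 0.72 (FDR 2.3e-28). Nnt, the mitochondrial transhydrogenase gene, and Paip1 went from −0.48 and −0.39 to 0.67 and 0.68, but with a flank of 500 kb in place of 1 Mb this region was weaker, not stronger. Nos1ap and Olfml2b went from −0.18 and −0.39 to 0.49 and 0.53, and G3bp1, a stress granule gene, with Glra1 from 0.10 and 0.16 to −0.68 and −0.69. Ly86, which encodes MD-1, the partner of the RP105 receptor in the B cell response to LPS, kept its side, from 0.42 and 0.24 to 0.98 and 0.93 (FDR 4.0e-17), with 0.87 and 0.79 already at pre-S. Pdia4, an isomerase of the endoplasmic reticulum, and its zinc finger neighbours went from −1.02 and −1.01 to −1.82 and −1.68. In all 12 the call held without 33 h replicate 2.

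Insulation was then measured at sites placed with the 3 h libraries, which are in neither group. Minima that arose only later are not among these sites, so the counts of shallower and deeper ones are for minima present at 3 h. The insulation score is the log2 mean contact across a bin within 500 kb, and the depth of a minimum is how far the score drops below its flanks at 250 to 500 kb. Of 2159 minima, 60.0% changed depth (limma, 5% FDR), 53.9% (1163) becoming shallower and 6.16% (133) deeper. The median depth was 0.72 and 0.70 at 10 h and 0.57 and 0.59 at 33 h, and 1740 minima had groups that did not overlap. In 5 equal classes by 3 h depth, 19.4% of the shallowest class and 82.2% of the deepest became shallower, while 13.4% and 0.231% deepened. In relation to the summed depth at 10 h, the summed change was −7.88% in the shallowest class and −20.1% to −16.6% in the other 4.

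The largest losses of depth were at or beside genes of several kinds. The minimum beside Ppp2r5c, a regulatory subunit gene of the phosphatase PP2A, at chr12:110349578-110399987, went from 3.16 and 2.93 to 1.79 and 1.89 (change −1.21, SE 0.13, limma FDR 1.7e-10). The pre-S libraries, at 2.98 and 2.56, lay nearer to 10 h. At Bcl6 (chr16:23949662-24000034) the depth went from 2.60 and 2.61 to 1.56 and 1.64 (−1.001, SE 0.10, FDR 4.4e-11), with 2.56 and 2.33 at pre-S. Mettl7b and Olfr9, at the edge of an olfactory receptor cluster, went from 3.92 and 3.54 to 2.60 and 2.54 (−1.16), and the keratin genes Krt17 and Krt42 from 3.66 and 3.62 to 2.59 and 2.58 (−1.06). The minimum beside Asrgl1 went from 2.64 and 2.30 to 1.45 and 1.46 (−1.02), and that of Cyp2e1, a cytochrome P450 of ethanol breakdown, and Syce1 from 3.00 and 3.08 to 1.95 and 2.10 (−1.01). Coverage was 0.24 higher at Krt17 and 0.23 higher at Cyp2e1 on the log2 scale, and with contacts divided by bin coverage the changes there were −0.99 and −0.94.

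The minimum that deepened most lay in the Hist1 cluster of replication-dependent histone genes, at chr13:23699500-23750089 with the starts of Hfe, the iron regulator, Hist1h1c, Hist1h3c and Hist1h2bb. Its depth was 0.39 and 0.33 at 10 h and 1.03 and 0.97 at 33 h (change 0.64, SE 0.045, FDR 2.7e-15), with 0.58 and 0.52 at pre-S and 0.26 and 0.27 at 3 h. Contacts across this bin weakened in 14 of 129 pairs (10.9%) and strengthened in 0, as the plot of contact changes shows, and those on 1 side of it weakened in 21 of 342 (6.14%) and strengthened in 14. Sephs1, a selenophosphate synthetase gene, went from 0.60 and 0.52 to 1.00 and 1.07 (0.47), and Dgke, a diacylglycerol kinase gene, with Gm525 from 1.69 and 1.41 to 1.94 and 2.04 (0.44). Zfp770 (0.35) and Col6a4, a collagen gene (0.35), followed. In all 11 named minima the call held without 33 h replicate 2, with bin coverage divided out and with a diamond of 250 kb. The share that became shallower was highest on chromosome 11 (65.1%, median change −0.20) and lowest on chromosome 14 (43.7%, median −0.06).

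**Figure D4:**
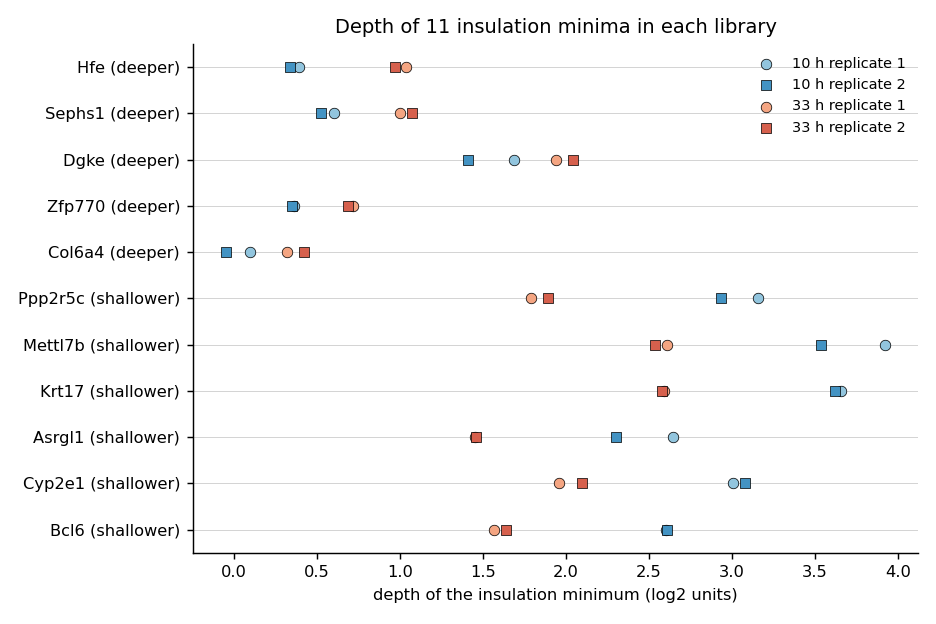
Points give the depth of 11 insulation minima (log2 units, x axis) in each of the 10 h (blue) and 33 h imminent division (red) libraries, for 5 of those that deepened most and the 6 that lost most depth, named by the gene at or beside them. The groups are apart at each site, by a change of 0.64 at Hfe and of −1.21 beside Ppp2r5c.

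CTCF, the zinc finger protein that stops cohesin at boundaries, was not mapped in these data, so its motif could only be looked for in the reference sequence. The core of the CTCF consensus (14 letters, either strand) was found in 11.4% of the 47332 kept autosomal bins and in 20.6% of the minima, namely in 22.6% of those that deepened, 21.5% of those that became shallower and 19.1% of those without a call. The share with the motif in the bin or a neighbour was 28.4% over all bins and 47.4%, 44.9% and 39.4% for the same 3 classes. The matches in or beside the named minima are shown because they give the letters and the orientation at the sites that changed most. Each line gives 30 bases of GRCm38 read 5′ to 3′ on the strand named, with the match in capitals.
Hfe, beside the minimum, chr13:23792668-23792697, plus strand: catgctgaCCAGTAGGTGGCAGtcttgtat
Sephs1, in the minimum, chr2:4864688-4864717, minus strand: cactttggCCAGCAGATGGCAGgataacac
Dgke, in the minimum and an intron of Gm525, chr11:89084779-89084808, plus strand: tcagacatCCACTAGGGGGCGCtagaagat
Col6a4, in the minimum and an intron of Col6a4, chr9:106080828-106080857, plus strand: gctttctgCCAGTAGAGGGCGCtgttagaa
Col6a4, beside the minimum between genes, chr9:106112965-106112994, minus strand: caatgtggCCAGCAGATGGCAGtgtgtcca
Ppp2r5c, in the minimum between genes, chr12:110373574-110373603, minus strand: gctgataaCCAGCAGGGGGCAGgctgagcc
Ppp2r5c, beside the minimum, chr12:110437479-110437508, plus strand: ctcactgcCCAGCAGGTGGCACctgtgact
Mettl7b, beside the minimum, chr10:128913378-128913407, minus strand: agagatggCCACCAGAGGGCGCttttctca
Bcl6, in the minimum and an intron of Bcl6, chr16:23984355-23984384, plus strand: gtgacctaCCACTAGGTGGCGGactcagtc
Some deepened and some shallower minima thus held a match in their own bin, namely those of Sephs1, Dgke, Col6a4, Ppp2r5c and Bcl6. Those of Hfe and Mettl7b had a match only in a neighbouring bin. No match was found in or beside the minima of Zfp770, Krt17, Asrgl1 and Cyp2e1. Beside Ppp2r5c the pair of matches faced away from each other along the chromosome, minus then plus, and at Col6a4 the pair faced each other, plus then minus. A match is a description of letters and not a bound site.

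Compartments shifted in both directions with few switches. The first component of the contact correlation, scaled to unit SD and positive in A, changed in 27.1% of 23541 bins of 100 kb (limma, 5% FDR), in 12.5% (2946) towards A and in 14.5% (3423) towards B. It changed sign in every library in only 119 bins that went into A (0.506%) and 207 that went into B (0.879%). Bins with a 10 h component between −0.5 and 0.5 moved most often, with 33.4% and 34.3% towards B and 17.1% and 22.9% towards A below and above 0, against 5.52% and 6.95% below −0.5 and 16.3% and 15.4% above 0.5. Since this grouping uses the 10 h libraries that are also in the contrast, the order is a description only. Most switches were of single bins, 80 into A and 180 into B, and the longest runs were of 4 bins. Switches from A to B numbered 22 of 1909 bins tested on chromosome 1, 22 of 1746 on chromosome 2, 19 of 1205 on chromosome 9 and 18 of 1262 on chromosome 10. Those from B to A numbered 12 of 1322 on chromosome 7, 11 of 1205 on chromosome 9, 10 of 1453 on chromosome 6 and 8 of 872 on chromosome 18. The chromosomes differ in bins tested, so the counts alone do not rank them.

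The 4-bin runs were at Cyp26b1 and Shank2. The run at Cyp26b1, which encodes an enzyme that breaks down retinoic acid, spanned chr6:84299771-84699901 and went from mean components of −0.07 and −0.04 to 0.21 and 0.16 (largest FDR of its bins 9.9e-04). Shank2, a synaptic scaffold gene, went from −0.07 and −0.08 to 0.15 and 0.15, and Sez6l on chromosome 5 from −0.18 and −0.15 to 0.15 and 0.15 over 3 bins. The largest shift towards A among the named runs was at Klf12, which encodes a transcriptional repressor, where 2 bins went from −0.39 and −0.37 to 0.29 and 0.27 (change 0.66). The longest runs towards B included 2 runs of 3 bins without a gene start on chromosomes 13 and 1. The run on chromosome 13 went from 0.05 and 0.13 to −0.21 and −0.18. A place without gene starts at chr10:38049905-38250191 shifted most of the named runs towards B, from 0.31 and 0.39 to −0.30 and −0.35 (−0.67), with −0.12 and −0.19 at pre-S. Vomeronasal genes on chromosome 7 near AI987944 and Vmn2r57 went from 0.17 and 0.15 to −0.10 and −0.14.

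Promoter interactivity is the summed cis count of a bin with a protein-coding gene start, over interactions above the level given by distance. Of 12397 bins tested, 50.9% changed (edgeR, 5% FDR), with 25.4% (3150) gaining and 25.5% (3156) losing contacts. The normalisation sets the median change near 0, so the even split is not a result. The changes were mostly small, with 5th and 95th percentiles of −0.30 and 0.30 on the log2 scale. With bin coverage in the offsets 4105 of the 6306 were called again in the same direction and 424 in the opposite one. Chromosome 3 had 40% gaining and 8.46% losing, and chromosome 15 had 10.3% and 41.8%. With bin coverage in the offsets these were 31.1% and 15.7% on chromosome 3 and 10.95% and 22.9% on chromosome 15, beside 22.1% and 22.3% over all bins, so that on chromosome 15 the share that lost came near that of all bins while losses still outnumbered gains. Chromosome 7 had 12.4% and 36.3% and chromosome 11 had 21.1% and 33.98%. With bin coverage in the offsets these were 12.05% and 30.2% on chromosome 7 and 13.03% and 34.3% on chromosome 11.

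The largest gain was at Macc1, a gene linked to cell migration, where the counts went from 285 and 317 at 10 h to 598 and 551 at 33 h (log2 0.92, SE 0.074, FDR 7.4e-14), with 421 and 405 at pre-S. Casp4, which encodes caspase-11, the sensor of LPS inside cells, and Casp12 went from 159 and 156 to 279 and 264 (0.78, SE 0.098, FDR 7.8e-09), with 156 and 142 at pre-S. Rab38, a small GTPase gene, rose from 402 and 431 to 728 and 689.9 (0.76). Klra9 and Klra17, natural killer receptor genes of the Ly49 cluster, rose by 0.78 and 0.75, and Edil3 and Vmn2r91 by 0.73 and 0.72. Klra and Vmn2r genes have near-identical copies, between which reads may be split. Counts at Casp4 and Klra9 exceeded 200, the minimum count for testing, only at 33 h imminent division. At 3 h Casp4 had 146 and 145. Klra9 had 193 and 165 at 10 h and 310 and 301 at 33 h. Both bins may thus have been kept for testing through the group in which they are high. Their rank among the gains is a description only.

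Of the 8 bins that lost most, 5 were on chromosome 11. Metrnl, a cytokine gene, fell from 1124 and 1154 to 637 and 689 (−0.78, SE 0.054, FDR 2.0e-15). Its bin had 3 strengthened DIs and 0 weakened ones among 42 pairs tested. Nlrp1b, which encodes an inflammasome sensor, fell from 1083 and 1123 to 707 and 728 (−0.62). Cacng1 and Cacng4, adjacent genes of calcium channel subunits, fell from 1810.0 and 1838 to 1147 and 1224 (−0.62) and from 1608 and 1679 to 1023 and 1115 (−0.62). The bins of Gm7168 (−0.63), 4930486L24Rik (−0.61), 5530401A14Rik (−0.59) and Ppp1r14c (−0.59) completed the 8. Among these 8 bins only that of Cacng1 had weakened DIs, 2 of 82 pairs tested. Besides Metrnl, strengthened DIs numbered 2 at Cacng4 and 1 each at 4930486L24Rik and Ppp1r14c. Gm7168, Nlrp1b and 5530401A14Rik had 0 in either direction.

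For the loci of the study, Prdm1 rose most, from 1574 and 1466 to 2136 and 2082 (0.48, SE 0.048, FDR 2.0e-10). Id2 went from 2035 and 2105 to 2433 and 2468 (0.24, FDR 2.1e-06) and Ell2 from 591 and 624 to 718 and 688 (0.20, FDR 0.00324). Bcl6 rose by 0.13 (FDR 0.00215). The Ell2 gain was not called without 10 h replicate 1, nor that of Bcl6 with bin coverage in the offsets (0.05). Ebf1 fell by 0.11 (FDR 0.0124, and −0.20 with bin coverage) and Pax5 by 0.10 (FDR 0.0197), but both turned to gains, of 0.05 each, when all interactions were summed without the distance filter, and neither loss was called without 10 h replicate 1 or without 33 h replicate 2. Myc, at 3880.0 and 4030.0 against 3901 and 4035, had a change of 0.00 (FDR 0.928), Twistnb of 0.07 (FDR 0.132) and Bach2 of −0.08 (FDR 0.0606). The bins of 5 of the 9 moved towards A, namely Myc (component change 0.17), Twistnb (0.14), Pax5 (0.12), Bcl6 (0.11) and Id2 (0.10), and 0 towards B, beside 12.5% and 14.5% of all bins of 100 kb. A minimum 250 kb before the Ebf1 start lost depth from 1.85 and 1.87 to 1.32 and 1.38 (−0.51, FDR 2.1e-07).

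Gene lists are described by their counts beside the shares of all promoter bins, 25.4% gaining and 25.5% losing, or 22.1% and 22.3% with bin coverage in the offsets. No difference between a list and all bins was tested. A bin of 50 kb can hold several gene starts, as those of Mcm7, Cdc20, Cd79a and Ctcf do, so its value is not that of the named gene alone. The bin of Spib is also that of Pold1, so its loss counts in both the B cell identity and the G1 and DNA replication lists. Of 8 bins of major histocompatibility complex (MHC) class II genes, which show antigen to T cells, 6 lost and 0 gained, with a median change of −0.20, and the same 6 and 0 were counted without 33 h replicate 2. H2-Eb1 fell from 1903 and 1918 to 1567 and 1459 (−0.34, FDR 1.7e-08), and the bin of H2-Ab1 from 1681 and 1680.0 to 1347 and 1325 (−0.33, FDR 1.9e-08). Their bins also had weakened contacts, 10 of 43 pairs at H2-Eb1 and 9 of 41 at H2-Ab1, and over the list 13.1% of pairs weakened and 0% strengthened, beside 2.41% and 0.672% over all bins with a gene start. With coverage in the offsets 75% of these bins still lost contacts. The 4 members with the smallest p lie within chr17:34050269-34350160, and neighbouring bins share contacts, so the bins of this list are not separate places. Chromosome 17 also had the highest share of weakened pairs of the autosomes, 2.33%.

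Of 19 bins of B cell receptor signalling genes, 11 lost and 2 gained (median −0.10), the losses including Pik3ap1 (−0.23) and Vav2 (−0.24). Vav2, a nucleotide exchange factor gene, went from 2262 and 2058 to 1839 and 1818. Of 24 bins of B cell identity genes, 11 lost and 3 gained (median −0.09). Among them Blk, a kinase gene of B cells, fell from 2196 and 2129 to 1607 and 1684 (−0.39, FDR 2.5e-10), Spib by 0.23 and Cd79a by 0.23, while Ms4a1, which encodes CD20, rose from 2204 and 2145 to 2517 and 2631 (0.25). With coverage in the offsets Spib had −0.05 (FDR 0.450) and Cd79a −0.08 (FDR 0.248), and neither was called. With coverage in the offsets the shares that lost were 21.1% for receptor signalling and 25.0% for identity, against 22.3% of all bins, and the shares that gained were 5.26% and 8.33%, against 22.1%. Without 33 h replicate 2, 9 and 7 bins lost contacts and 0 and 3 gained them.

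Of 20 bins of plasma cell and secretion genes, 8 gained and 1 lost (median 0.07). Besides Prdm1 and Ell2 these included Sdc1, which encodes CD138, from 1339 and 1249 to 1544 and 1583 (0.28, FDR 2.2e-06), and Dnajb9, a chaperone gene, from 1166 and 1129 to 1343 and 1325 (0.22). With coverage in the offsets 25.0% gained and 15% lost, against 22.1% and 22.3% of all bins. Of the single contacts of these bins 5.73% weakened and 0.415% strengthened, beside 2.41% and 0.672% over all bins with a gene start.

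The cell cycle lists lay near the shares of all promoter bins, 25.4% gaining and 25.5% losing. Of 47 bins of G1 and DNA replication genes 13 gained (27.7%) and 10 lost (21.3%). Of 35 bins of mitosis genes 10 gained and 10 lost (28.6% each). The bin with the starts of Mcm7, a subunit gene of the replicative helicase, and of other genes fell from 1808 and 1792 to 1422 and 1348 (−0.38). Tyms, the thymidylate synthase gene, rose from 1487 and 1485 to 1803 and 1853 (0.30). Bub1, a spindle checkpoint kinase gene, rose from 1379 and 1430.0 to 1899 and 1799 (0.39), and Cdc20, the activator of the anaphase complex, fell from 1960.0 and 1961 to 1541 and 1504 (−0.37). Coverage of the Bub1 bin was 0.27 higher at 33 h, and with coverage in the offsets its change was 0.14 (FDR 0.0230). Of 13 cohesin and CTCF bins 3 gained and 1 lost, the gains being Stag1 (0.33), Pds5a (0.21) and Pds5b (0.16) and the loss Ctcf (−0.19). With coverage in the offsets 7.69% gained and 15.4% lost (median change 0.01, against 0.03 without it), Pds5a had 0.09 (FDR 0.130) and Pds5b −0.05 (FDR 0.484).

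In the LPS receptor and NF-kappaB list 4 of 24 bins gained and 4 lost, with Nfkbiz at 0.27 and the adaptor gene Myd88 at −0.23, and in the RNA polymerase I and ribosome list 4 of 26 gained and 7 lost, with the fibrillarin gene Fbl at −0.22. Nfkbiz was not called with coverage in the offsets (0.105, FDR 0.0897). Activation and costimulation genes (17 bins) had 4 gains and 3 losses. Il6 rose from 1330.0 and 1326 to 1847 and 1730.0 (0.43, FDR 1.2e-10, and 0.27 with coverage in the offsets), whereas Cd83 fell from 1886 and 1911 to 1608 and 1596 (−0.25) and 14 of 62 pairs at its bin weakened. Homing and quiescence genes (14 bins) had 4 gains and 2 losses, the Bcl2 family (13) 1 and 3, and the markers of T cells and myeloid cells (12), which B cells do not use, 1 and 2. With coverage in the offsets the Bcl2 family had 15.4% gaining and 7.69% losing and the T cell and myeloid markers 33.3% and 0%, so that gains then outnumbered losses in both. Without 33 h replicate 2, 0 of the homing and quiescence bins and 0 of the Bcl2 family bins gained.

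The clustered gene families were counted in the same way. Of 16 bins of replication-dependent histone genes 8 lost and 0 gained (median −0.10), with Hist1h2be at −0.27 and Hist2h4 at −0.22. Of the pairs at these bins 7.15% weakened and 0.686% strengthened, beside 2.41% and 0.672% over all bins with a gene start. Hist1h2be had −0.43 and Hist2h4 −0.12 with coverage in the offsets, the latter not called (FDR 0.0518). Of 386 olfactory receptor bins 162 lost and 83 gained (42.0% and 21.5%). The members with the smallest p included Olfr395 (−0.44) and Olfr243 (0.47). Single contacts of the olfactory receptor bins went the other way, with 1.39% strengthened and 0.666% weakened, beside 0.672% and 2.41% over all bins with a gene start. Of 13 bins of the Hox clusters 7 gained and 1 lost (median 0.20), led by Hoxd8 (0.47), but their median coverage was 0.18 higher, and with coverage in the offsets 15.4% gained and 30.8% lost. Histones and olfactory receptors still lost more than they gained with coverage in the offsets, 62.5% against 6.25% and 46.1% against 15.03%. Olfactory receptor and histone genes have near-identical copies, so single members are uncertain.

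**Figure D5:**
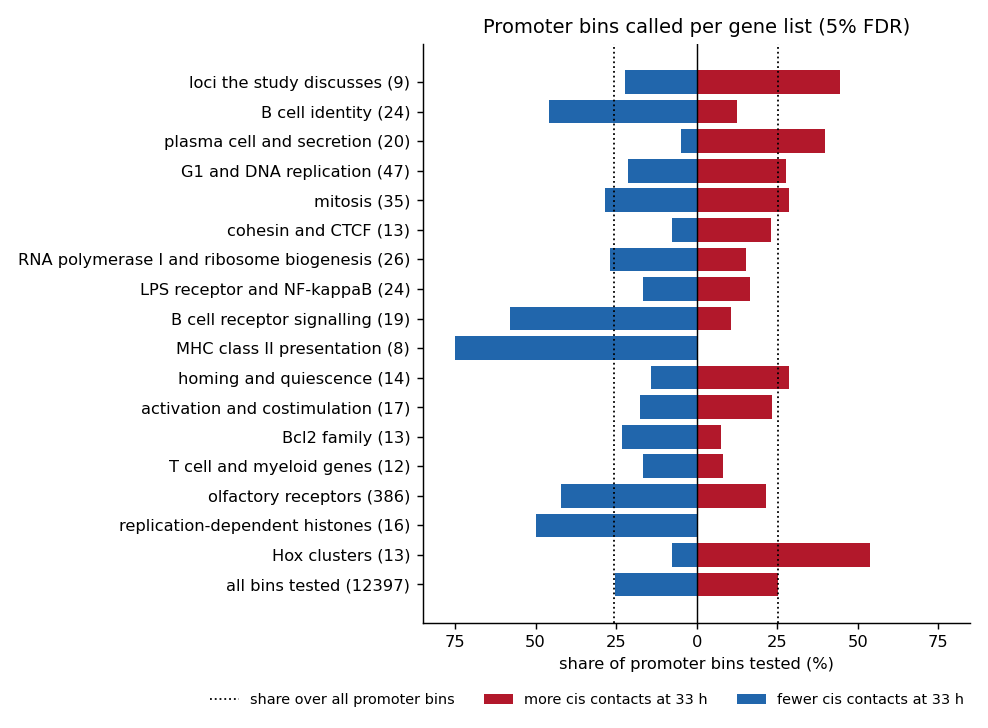
Bars give the share of promoter bins of each gene list (number of bins tested in parentheses) that gained (red, right) or lost (blue, left) cis contacts at 33 h imminent division against 10 h at 5% FDR, and dotted lines the shares over all 12397 promoter bins (25.4% and 25.5%). MHC class II bins reach 75% lost and 0% gained, and the Hox clusters 53.8% gained and 7.69% lost.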

How the data were processed

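The authors aligned in situ HiC reads to mm10 and deposited 1 symmetric matrix per library, which holds unscaled counts of read pairs between 50 kb bins. According to the study's methods, diffHic was used with cutadapt and bowtie2, duplicates were marked with Picard, and dangling ends and overlong fragments were removed. The 53357 bins were rebuilt from MboI sites of the 66 sequences of GRCm38, and 756 of 48088 autosomal bins were left out, having over 10% undetermined sequence or an interchromosomal coverage over 4 times, or under 1/4 of, the median. Gene starts came from the annotation of that assembly.

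All tests used a one-way layout over 8 libraries and the contrast of 33 h imminent division minus 10 h, at 5% FDR (Benjamini-Hochberg over all features), in R 4.3.3 with edgeR 4.0.16 and limma 3.58.1, with DESeq2 1.42.0 as an alternative. For DIs, bin pairs with a summed count of at least 10 and abundance over 4-fold the interchromosomal background (prior count 2) were tested by quasi-likelihood with loess offsets, fitted apart under 1.5 Mb. Normalised counts are counts after these offsets. Bin coverage was counted from read pairs between different autosomes only. Boundary regions needed an average log2 CPM of at least 1. Compartments were computed per library at 100 kb. Promoter bins summed the interactions lying more than 2 mean absolute residuals (each 0.312, log2) above a distance curve, and bins under 200 counts were left out. Replicate numbers were not treated as pairs. Promoter counts of same-numbered 10 h and 33 h libraries did not deviate together (correlation of deviations −0.06), which cannot show how the libraries were prepared. An exact permutation test of 2 against 2 cannot give a p under 0.333 and was not used. Scripts were tested on simulated data.

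Named DIs had, per direction and autosome, the smallest p among pairs whose groups did not overlap and which kept sign and FDR without any 1 of the 4 libraries and when offsets included bin coverage. The 8 smallest were described. The other named features were the 5 windows, 6 regions, 6 minima, 6 runs of bins and 8 promoter bins per direction that ranked first, and, of each gene list, the 4 members with the smallest p. The members and lists were chosen with earlier results of these data known. Without molecular identifiers, read pairs need not be independent molecules. Some features that these rules name are not reported here.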

Additional observations from a re-analysis of the deposited data

How the results depend on the processing

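The count of DIs was 29329, and 7297 with all libraries thinned to the shallowest, which left 900578 pairs to test, 9207 with DESeq2, 56365 with TMM factors, 57328 with bin coverage in the offsets, 56960 with 100 kb bins, and between 3022 and 13983 with 1 of the 4 libraries left out (8041 and 3022 without 10 h replicates 1 and 2, 9297 and 13983 without 33 h replicates 1 and 2). Boundary regions numbered 8744 without the fold change threshold and 3122 to 3875 with a library left out. Leaving out a library gave 976 to 1154 minima, 4016 to 4078 compartment bins and 4489 to 5257 promoter bins, and DESeq2 gave 4129 promoter bins. By autosome, leaving out a library gave 19 for the long-range share, 0 to 18 for the interchromosomal share and 0 to 5 for compartment strength, and 10 to 12, 7 to 8 and 10 to 12 relative to the mean of the autosomes. With the interchromosomal background taken off, compartment strength gave 0, and 4 relative to the mean.

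Replicate numbers were shared across groups, but the labels do not say whether they pair the libraries. With the replicate number as a block, 25167 DIs, 4090 boundary regions, 1285 minima, 6167 compartment bins and 6023 promoter bins were called, and none of the 65 single results changed its call or direction.

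Of the 65 single results, 57 kept direction and call under every alternative that gave them an adjusted p. DESeq2 gave none for some of the named DIs, so these were not checked by it. It kept 27 results and lost the call of 4, where TMM factors kept 40 and lost the call of 1. The Nnt region became weaker with a 500 kb flank (0.909). Without the interaction filter the promoter bins of Ebf1, Pax5 and Bach2 had changes of 0.0469, 0.0531 and 0.0513, and with bin coverage Bach2 had 0.107. Myc, with a change of 0.00, had −0.0740 with bin coverage and between −0.0285 and 0.0340 with a library left out. The cause of these differences was not tested.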
